A study of Mus musculus with 20 samples.

Results

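Rab GTPases are small membrane-bound switches, each of which marks a set of compartments and recruits the motors, tethers and coats that move and fuse vesicles there. They are active when bound to GTP and inactive when bound to GDP. Exchange factors load GTP, GTPase-activating proteins end the active state, and prenylation of the carboxyl terminus holds the protein on the membrane. In the ovary, membrane traffic of this kind serves hormone receptors and lipid uptake in somatic cells, cortical granule release in oocytes, and the delivery of autophagic cargo to lysosomes.

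The genes described were the protein-coding mouse genes whose symbol is Rab followed by a number and an optional letter. Of 59 such genes in GENCODE release M21, 44 had a row among the 17651 genes of the deposited table. The other 15 (Rab2b, Rab3c, Rab4a, Rab6b, Rab7b, Rab8a, Rab9, Rab11b, Rab17, Rab26, Rab32, Rab33a, Rab37, Rab39b and Rab43) were not analysed here. Grouped by the compartment each protein is best known for, the 44 comprised 4 genes of the endoplasmic reticulum and early Golgi, 8 of the Golgi, 7 of the early endosome, 6 of recycling, 6 of the late endosome and lysosome, 9 of exocytosis and 4 others.

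RNA was sequenced from whole ovaries of wild-type (WT) mice in 20 libraries, 4 in each of 5 groups. Mice were young (7 to 8 weeks), adult (27 to 28 weeks) or aged (73 to 74 weeks), and 2 further groups received HEP14, at the adult and at the aged age. HEP14 is a small molecule known to activate protein kinase C and to promote lysosome formation. The aged group was given vehicle, and the adult HEP14 group appears only in the sample titles. No label gives a vehicle for the young and adult groups, a dose, a duration, or whether a library came from 1 animal. P-values therefore measure the spread between libraries, which may be technical.

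The values were scores: each gene had been scaled to a mean of 0 and a standard deviation (SD) of 1 over the 20 libraries. A difference of 2 thus means 2 SD of that gene and says nothing of its fold change, and genes cannot be ranked by the size of their expression change. Levels and sequencing depth are unknown. Differences are given with their standard error (SE) from a limma fit of all 20 libraries, and "called" means a Benjamini-Hochberg adjusted p under 0.05 over all genes of the table. In 38 of the 44 members no 2 libraries shared a lowest value. Rab3b, Rab9b, Rab25, Rab38, Rab39 and Rab42 had tied lowest values, as genes without reads would, and Rab9b stood at its tied lowest in all 4 aged libraries.

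The 4 aged libraries stood apart from the other 16 in many measures besides the Rab genes. Their median score over all genes was -0.62 to -0.28, against -0.16 to 0.018 elsewhere, and the SD of their scores over genes was 1.29 to 1.87, against 0.54 to 1.01. The mean score of 13 genes encoded by the mitochondrial genome was 1.34 to 2.15 in aged libraries and -0.78 to 0.093 in the others. The number of genes sitting at their tied lowest score was 1956 to 3697 in an aged library, against 686 to 1218 in the rest. The within-group SD, as a median over the Rab genes, was 0.78 in aged ovaries, 0.24 in young, 0.38 in adult, 0.30 in adult HEP14 and 0.38 in aged HEP14 ovaries. The limma fit uses 1 variance per gene for all 5 groups, so the SE of a difference that involves the aged group can be too small. The part of these library properties in the results below was not tested.

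Rab transcripts were mostly lower in aged than in young ovaries. Of 44 members, 29 were called lower, against 41.3% of all genes, and 10 were called higher, against 33.0% of all genes (74.3% in either direction). The median difference of the members was -1.75, and that over all genes was -0.41. In 22 members all 4 aged libraries lay below the other 16 libraries, which held for 20.2% of all genes, and in 7 they lay above all 16, which held for 17.6%. With library medians over all genes set equal, the median over all genes moved to 0.012 and the Rab counts became 28 lower and 12 higher, beside 35.8% and 37.2% of all genes under that scaling. With 1 variance per group, 32.2% of all genes were called lower and 29.7% higher. The calls of Rab25 and Rab9b were lost in that fit. In whole tissue, fewer cells of a type and less RNA per cell cannot be told apart.

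Against adult ovaries, aged ovaries had 25 members called lower and 9 called higher, with 35.7% and 31.1% of all genes called in these directions (66.8% in either), and the median was -1.72 against -0.26 over all genes. Between aged ovaries given HEP14 and aged ovaries given vehicle, 26 members were called higher with HEP14 and 9 lower, against 33.2% and 29.3% of all genes (62.5% in either direction). The median was 1.49, against 0.31 over all genes. These comparisons share the aged libraries, so their values are set side by side below and are not independent. The heat map shows the scores of all 44 members in every library.

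**Figure D1:**
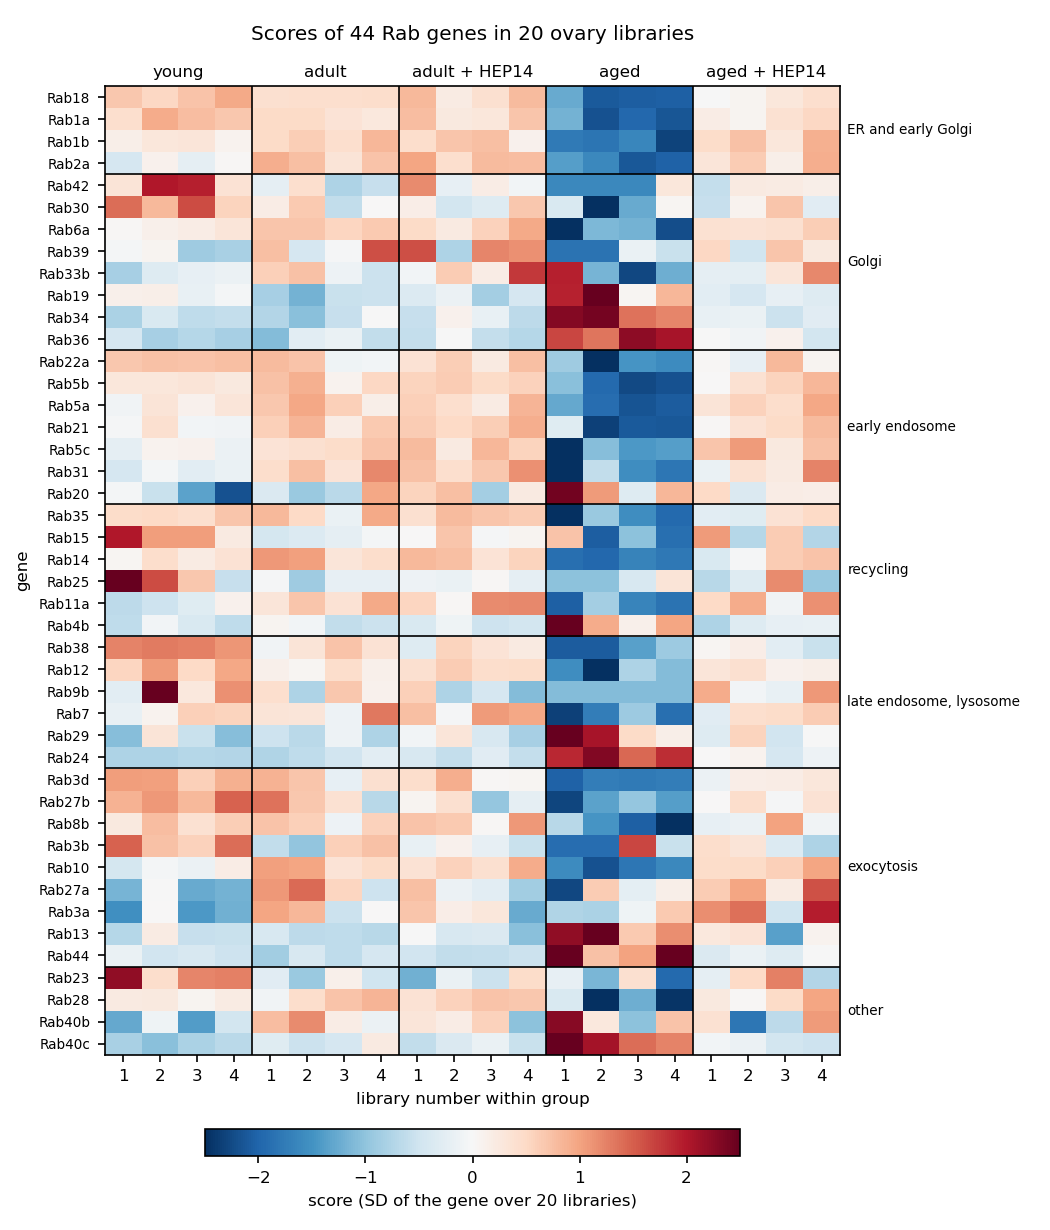
Scores of 44 Rab genes (rows, by compartment and then by the difference of aged minus young) in 20 libraries (columns, 4 per group); red is above and blue below the gene's mean, in SD of the gene. In 22 genes the 4 aged libraries are lower than the other 16 and in 7 they are higher.

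Promoter windows of 300 bases were available for 37 members, in 46 windows. The letters CACGTG, the E-box core, were in 6 of the 46 windows (13.0%) and in 7.15% of 32851 windows of 27025 RefSeq genes. That larger set is not limited to the 17651 genes analysed here, so these shares compare unlike sets. The longer palindrome TCACGTGA, which contains CACGTG and forms the centre of the CLEAR element bound by TFEB, a regulator of lysosomal genes, was in 3 of 46 (6.52%) and in 0.974% of all windows. A palindrome reads the same on both strands. The 3 windows belong to Rab5a and Rab21, which were called lower in aged ovaries, and to Rab24, which was called higher. They are shown from RefSeq (GRCm38.p6), 5′ to 3′ on the strand of the gene, because members of opposite direction carry the same letters; capitals mark TCACGTGA, and a match shows letters and not binding. The Rab5a window is chr17:53478984-53479233 (plus strand), that of Rab21 chr10:115315592-115315841 (minus strand) and that of Rab24 chr13:55321951-55322230 (minus strand, with 30 bases after the start).
Rab5a: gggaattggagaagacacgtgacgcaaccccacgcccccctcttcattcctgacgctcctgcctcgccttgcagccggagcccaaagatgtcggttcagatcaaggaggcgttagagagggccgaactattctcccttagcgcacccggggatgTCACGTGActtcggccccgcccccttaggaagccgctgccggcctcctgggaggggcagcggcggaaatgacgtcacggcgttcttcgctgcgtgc
Rab21: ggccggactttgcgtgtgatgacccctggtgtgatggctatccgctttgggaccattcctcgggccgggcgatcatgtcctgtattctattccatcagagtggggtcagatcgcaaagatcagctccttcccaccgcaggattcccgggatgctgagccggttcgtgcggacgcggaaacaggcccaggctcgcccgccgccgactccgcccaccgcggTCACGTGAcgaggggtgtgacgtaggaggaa
Rab24: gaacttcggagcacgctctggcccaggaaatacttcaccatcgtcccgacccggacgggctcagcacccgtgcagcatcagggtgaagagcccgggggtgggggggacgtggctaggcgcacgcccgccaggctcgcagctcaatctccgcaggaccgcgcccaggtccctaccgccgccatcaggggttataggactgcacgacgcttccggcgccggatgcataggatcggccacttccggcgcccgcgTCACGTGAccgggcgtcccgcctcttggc
The capitals begin 96 bases before the annotated start in Rab5a, 31 bases before it in Rab21 and 1 base after it in Rab24.

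Every member of the endoplasmic reticulum and early Golgi group was called lower in aged than in young ovaries (4 of 4, median -2.33). All 4 were called higher in aged HEP14 than in aged ovaries (median 2.22). For this and the groups below, 33.0% of all genes were higher and 41.3% lower for aged minus young. For aged HEP14 minus aged these shares were 33.2% and 29.3%. Rab1a (chr11:20201432-20226856 on GRCm38), which carries cargo from the endoplasmic reticulum to the Golgi, scored -1.19, -2.19, -1.97 and -2.14 in the aged libraries. Its other scores were 0.42, 0.92, 0.77 and 0.68 in young, 0.48, 0.47, 0.35 and 0.26 in adult, 0.77, 0.24, 0.28 and 0.69 in adult HEP14 and 0.18, 0.073, 0.38 and 0.53 in aged HEP14 ovaries. All 4 aged libraries were lower than the other 16, and the ranges of the other groups overlapped. Aged minus young was -2.57 (SE 0.27), with an adjusted p of 2.33e-07, and aged HEP14 minus aged was 2.16 (SE 0.27).

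Rab1b, its close paralogue, scored -1.77, -1.82, -1.62 and -2.32 in aged ovaries. Elsewhere it stood at 0.15, 0.28, 0.30 and 0.10 in young, 0.48, 0.61, 0.42 and 0.82 in adult, 0.45, 0.69, 0.75 and 0.11 in adult HEP14 and 0.46, 0.73, 0.29 and 0.90 in aged HEP14 libraries. The aged libraries were again the lowest 4, and the difference of aged HEP14 minus aged, 2.48 (SE 0.26), was the highest of any member. Rab2a, of the intermediate compartment between the endoplasmic reticulum and the Golgi, scored -1.37, -1.62, -2.11 and -2.03 in aged ovaries. It scored -0.42, 0.10, -0.23 and 0.037 in young, 0.90, 0.75, 0.32 and 0.72 in adult, 0.98, 0.41, 0.80 and 0.76 in adult HEP14 and 0.30, 0.63, 0.14 and 0.92 in aged HEP14 libraries. Rab2a had an aged-minus-young difference of -1.65 (SE 0.28) and an aged-minus-adult difference of -2.45 (SE 0.28).

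Rab18, which acts on the endoplasmic reticulum and at lipid droplets, scored -1.26, -2.09, -2.07 and -2.05 in aged libraries, with library 1 standing above the other aged libraries. Its scores were 0.68, 0.51, 0.70 and 0.95 in young, 0.40, 0.41, 0.42 and 0.45 in adult, 0.81, 0.20, 0.40 and 0.79 in adult HEP14 and -0.018, 0.067, 0.27 and 0.41 in aged HEP14 ovaries. The aged libraries did not overlap with any other group, and aged minus young was -2.58 (SE 0.27).

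In the Golgi group 3 of 8 members were called higher and 3 lower in aged than in young ovaries (median -0.49), where 33.0% of all genes were higher and 41.3% lower. In aged HEP14 relative to aged ovaries 3 were called higher and 3 lower (median 1.04), beside 33.2% and 29.3% of all genes. Rab34 (chr11:78188430-78192193), which positions lysosomes and takes part in forming primary cilia, scored 2.29, 2.4, 1.35 and 1.22 in aged libraries. In the other groups it scored -0.78, -0.38, -0.64 and -0.60 (young), -0.73, -1.04, -0.59 and -0.0092 (adult), -0.57, 0.10, -0.19 and -0.66 (adult HEP14) and -0.18, -0.17, -0.54 and -0.29 (aged HEP14). The aged libraries were the highest 4 of 20, aged minus young was 2.41 (SE 0.32) and aged HEP14 minus aged was -2.11 (SE 0.32). Rab36, the closest relative of Rab34, scored 1.67, 1.34, 2.23 and 2.06 in aged ovaries. Its scores elsewhere were -0.41, -0.83, -0.72 and -0.84 (young), -1.09, -0.26, -0.18 and -0.62 (adult), -0.60, -0.0084, -0.59 and -0.71 (adult HEP14) and -0.0028, -0.084, 0.11 and -0.47 (aged HEP14). It too was highest in the 4 aged libraries, with differences of 2.53 (SE 0.29) from young and 2.36 (SE 0.29) from adult ovaries.

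Rab19 scored 1.92, 3.23, 0.046 and 0.83 in aged libraries, a wide spread with library 2 at the top and library 3 within the range of young ovaries. It scored 0.12, 0.15, -0.19 and -0.051 in young, -0.82, -1.18, -0.56 and -0.53 in adult, -0.33, -0.14, -0.86 and -0.42 in adult HEP14 and -0.27, -0.41, -0.20 and -0.33 in aged HEP14 libraries. Aged minus young was 1.5 (SE 0.45), and it was 0.92 without aged library 2, still called. Fitted on young and aged libraries alone, the same difference had an adjusted p of 0.0639, and without aged libraries 1 and 2 it was 0.43 with an adjusted p of 0.167.

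Rab6a, which returns membrane from the Golgi to the endoplasmic reticulum, went the other way, with -2.69, -1.12, -1.18 and -2.23 in aged libraries. Its scores were 0.030, 0.12, 0.19 and 0.31 in young, 0.70, 0.69, 0.55 and 0.65 in adult, 0.48, 0.23, 0.58 and 0.95 in adult HEP14 and 0.38, 0.36, 0.40 and 0.61 in aged HEP14 ovaries. All aged libraries were below the rest, with -1.97 (SE 0.32) for aged minus young and 2.24 (SE 0.32) for aged HEP14 minus aged. Rab30 (-2.26) and Rab42 (-2.3) were also called lower in aged than in young ovaries, with Rab42 at its tied lowest value in aged libraries 1, 2 and 3. Rab33b, a Golgi Rab that binds the autophagy protein Atg16l1, differed by -0.31 (SE 0.64) and Rab39 by -0.68 (SE 0.53), and neither was called. Without aged library 1, Rab33b stood at -1.18 with an adjusted p of 0.0272. In aged HEP14 relative to aged ovaries Rab39 (1.34 (SE 0.53)) and Rab42 (1.14 (SE 0.49)) were called higher. Neither call stood without any 1 of several libraries: Rab39 fell to 1.10 without aged library 1 or 2 and lay between 1.19 and 1.34 without aged HEP14 library 1, 3 or 4. Rab42 fell to 0.98 without aged library 1, 2 or 3 and lay between 1.06 and 1.09 without aged HEP14 library 2, 3 or 4.

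Early endosome genes were called lower in 6 of 7 cases in aged than in young ovaries (median -1.77), beside 41.3% of all genes. In aged HEP14 relative to aged ovaries 6 of 7 were called higher (median 2.12), beside 33.2% of all genes. Rab5a, Rab5b and Rab5c share the control of early endosome fusion, and all 3 were among the 6 in each comparison. Rab5a (chr17:53479234-53507680), one of the genes whose promoter is printed, scored -1.28, -1.89, -2.16 and -2.07 in aged ovaries. Elsewhere Rab5a scored -0.086, 0.32, 0.11 and 0.30 in young, 0.67, 0.96, 0.59 and 0.15 in adult, 0.60, 0.42, 0.21 and 0.85 in adult HEP14 and 0.31, 0.57, 0.45 and 0.97 in aged HEP14 libraries. The aged libraries did not reach the others, and aged HEP14 minus aged was 2.43 (SE 0.28), with an adjusted p of 2.26e-06.

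Rab5c scored -2.99, -1.05, -1.44 and -1.37 in aged ovaries, with library 1 the lowest by far. Its scores were -0.23, 0.088, 0.11 and -0.15 in young, 0.34, 0.40, 0.47 and 0.71 in adult, 0.80, 0.23, 0.83 and 0.55 in adult HEP14 and 0.69, 1.07, 0.24 and 0.73 in aged HEP14 libraries. Aged minus young was -1.67 (SE 0.35), beside -2.14 (SE 0.30) for Rab5b. Rab21, which moves integrins, differed by -1.77 (SE 0.36) and Rab22a by -2.43 (SE 0.37), and Rab31, which links the trans-Golgi network with endosomes, by -1.39 (SE 0.37). Rab20, found on phagosomes and endosomes, was the exception, called higher in aged than in young ovaries at 2.02 (SE 0.55). Its aged HEP14 minus aged difference was -0.88 (SE 0.55), not called, and without aged libraries 1 and 2 its difference between aged and young fell to 1.28 with an adjusted p of 0.0671.

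Recycling genes were called lower in 5 of 6 cases in aged than in young ovaries and higher in 1 (median -1.91). Over all genes 41.3% were lower and 33.0% higher. In aged HEP14 relative to aged ovaries 3 were called higher and 1 lower (median 1.48), beside 33.2% and 29.3% of all genes. Rab11a, of the slow recycling endosome, scored -2.04, -0.85, -1.64 and -1.84 in aged libraries. It scored -0.66, -0.51, -0.31 and 0.11 in young, 0.30, 0.70, 0.37 and 0.95 in adult, 0.54, 0.022, 1.18 and 1.2 in adult HEP14 and 0.50, 0.93, -0.094 and 1.15 in aged HEP14 ovaries. The aged libraries were the lowest 4, although young library 1 lay close to aged library 2. Aged minus young was -1.25 (SE 0.36) with an adjusted p of 0.00383, and with library medians set equal it was -0.83 with an adjusted p of 0.056, no longer called.

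Rab14, of recycling and Golgi-to-endosome traffic, scored -1.89, -1.97, -1.67 and -1.78 in aged libraries. Its scores were 0.058, 0.43, 0.21 and 0.35 in young, 1.09, 1.03, 0.31 and 0.44 in adult, 0.81, 0.75, 0.34 and 0.55 in adult HEP14 and -0.38, -0.029, 0.64 and 0.72 in aged HEP14 ovaries. Aged libraries lay together and well below the rest, at -2.54 (SE 0.29) relative to adult ovaries. Rab35, which recycles cargo from the plasma membrane, differed by -2.27 (SE 0.34) between aged and young ovaries and Rab15 by -2.14 (SE 0.53). Rab4b, of the fast recycling route, was called higher at 1.87 (SE 0.50), and this was 1.10 without aged library 1. All its aged libraries were above the other 16, although aged library 3 (0.12) lay close to adult library 1 (0.070). Fitted with only the groups compared, Rab4b was not called for aged minus adult (adjusted p 0.0737) or aged HEP14 minus aged (adjusted p 0.0651). Rab25, a Rab of epithelial cells, was called lower at -1.73 (SE 0.57), with aged libraries 1 and 2 at its tied lowest value. Without young library 1 the difference was -1.11 with an adjusted p of 0.0607. The call was also lost with only the groups compared (adjusted p 0.0677) and with 1 variance per group (0.183). Without aged libraries 1 and 2 the adjusted p was 0.131.

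Late endosome and lysosome genes were called lower in 4 of 6 cases in aged than in young ovaries and higher in 2 (median -2.01). Over all genes 41.3% were lower and 33.0% higher. With HEP14 in aged ovaries, 4 of the 6 were called higher and 2 lower (median 1.49), beside 33.2% and 29.3% of all genes. Rab7 (chr6:87999106-88045270), which directs late endosomes and autophagosomes to fuse with lysosomes, scored -2.33, -1.74, -0.92 and -1.89 in aged libraries. It scored -0.18, 0.082, 0.60 and 0.56 in young, 0.33, 0.31, -0.13 and 1.31 in adult, 0.75, -0.036, 1.06 and 0.97 in adult HEP14 and -0.28, 0.43, 0.46 and 0.64 in aged HEP14 ovaries. The aged libraries were lower than all others, with a difference of -1.98 (SE 0.37) from young and, for aged HEP14 minus aged, of 2.03 (SE 0.37).

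Rab38 (chr7:88430273-88491572), of lysosome-related organelles such as melanosomes, scored 1.24, 1.29, 1.25 and 1.11 in young libraries, the narrowest group, and -2.07, -2.07, -1.35 and -0.91 in aged ones. It scored -0.084, 0.33, 0.71 and 0.37 in adult, -0.32, 0.56, 0.33 and 0.22 in adult HEP14 and 0.041, 0.17, -0.26 and -0.56 in aged HEP14 ovaries. Young libraries were above and aged libraries below every library of the other 3 groups. The aged-minus-young difference, -2.83 (SE 0.31), was the most negative of the 44, with aged libraries 1 and 2 at the tied lowest value of Rab38. Aged HEP14 ovaries were called lower than young ones at -1.37 (SE 0.31). Rab12 and Rab9b were called lower as well, at -2.44 and -2.04. In aged HEP14 relative to aged ovaries they were called higher at 1.91 and 1.52. That Rab9b call was lost in 5 fits. Among these, it was 1.31 with an adjusted p of 0.053 without aged HEP14 library 4. It was 1.16 (adjusted p 0.0625) with library medians set equal, and the adjusted p was 0.25 with 1 variance per group. The aged-minus-young call of Rab9b was also lost with 1 variance per group (adjusted p 0.0857).

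Rab24 (chr13:55319743-55321946), an atypical Rab associated with autophagosomes, went in the opposite direction to Rab5a and Rab21, with which it shares the promoter letters. It scored 1.88, 2.31, 1.44 and 1.84 in aged libraries. Its scores were -0.78, -0.78, -0.71 and -0.74 in young, -0.75, -0.64, -0.48 and -0.26 in adult, -0.39, -0.60, -0.28 and -0.60 in adult HEP14 and 0.0056, 0.087, -0.41 and -0.13 in aged HEP14 ovaries. All 4 aged libraries stood above the other 16. Aged minus young was 2.62 (SE 0.25) with an adjusted p of 1.65e-07, and aged HEP14 minus aged was -1.98 (SE 0.25). Rab29, which recruits the kinase LRRK2 to lysosomes and the Golgi, was called higher at 2.01 (SE 0.50), and without aged libraries 1 and 2 this was 0.90 with an adjusted p of 0.056. Rab29 was called lower in aged HEP14 than in aged ovaries at -1.48, and without aged library 1 this was -0.96 with an adjusted p of 0.0662.

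**Figure D2:**
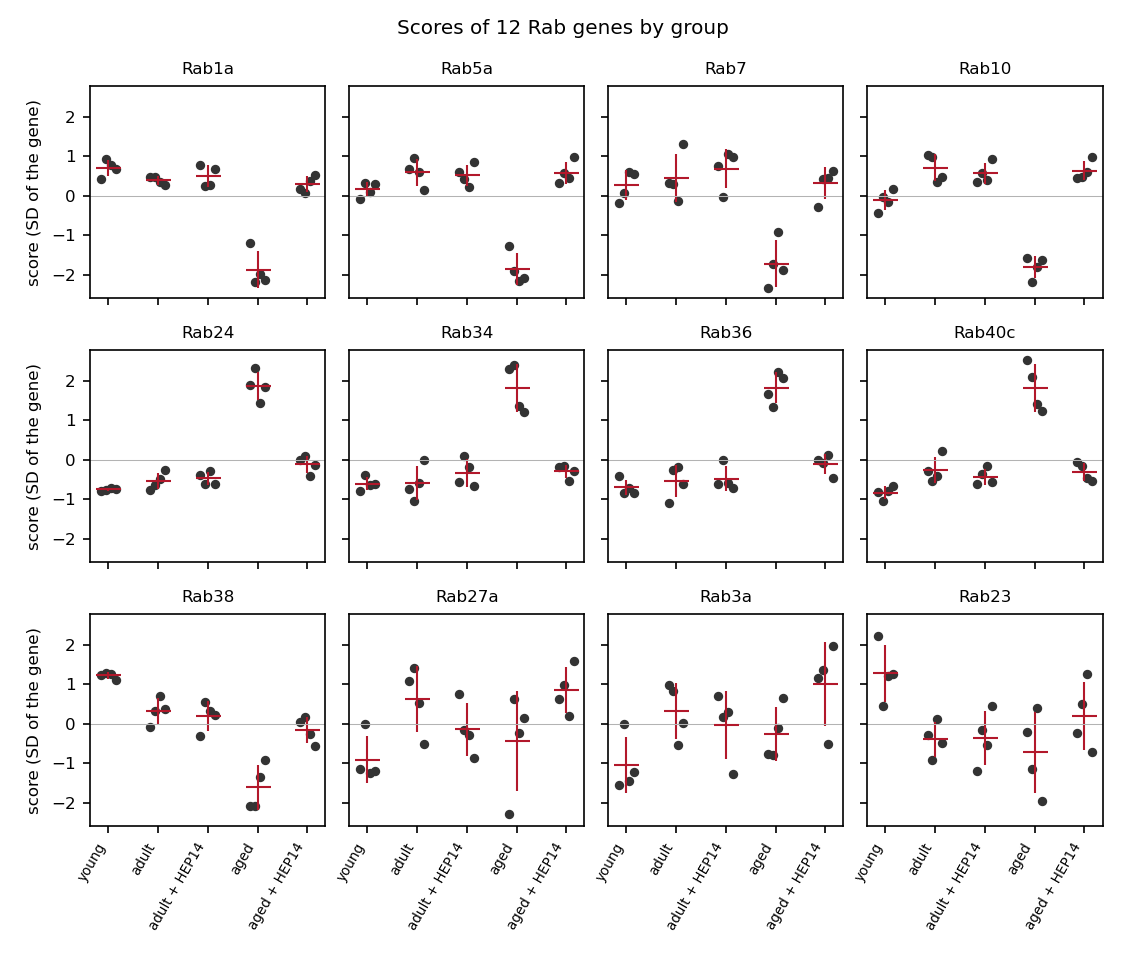
Scores of 12 Rab genes (vertical axis, SD of the gene) in the 5 groups; points are libraries, and red bars give the group mean and its SD (n = 4). Rab1a, Rab5a, Rab7, Rab10 and Rab38 are lowest and Rab24, Rab34, Rab36 and Rab40c highest in the aged libraries, while Rab27a, Rab3a and Rab23 overlap between aged and other groups.

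Exocytosis genes were called lower in 5 of 9 cases in aged than in young ovaries and higher in 2 (median -1.69). Over all genes 41.3% were lower and 33.0% higher. In aged HEP14 relative to aged ovaries 5 were called higher and 2 lower (median 1.28), beside 33.2% and 29.3% of all genes. Rab10, which brings vesicles to the plasma membrane, scored -1.58, -2.18, -1.81 and -1.62 in aged libraries. It scored -0.44, -0.043, -0.15 and 0.18 in young, 1.02, 0.98, 0.35 and 0.48 in adult, 0.36, 0.58, 0.40 and 0.94 in adult HEP14 and 0.45, 0.49, 0.60 and 0.98 in aged HEP14 ovaries. The aged libraries were the lowest 4, at -2.5 (SE 0.27) relative to adult and -1.69 (SE 0.27) relative to young ovaries. Rab3d, a Rab of secretory granules, scored -2.02, -1.72, -1.76 and -1.72 in aged libraries. Elsewhere it scored 1.04, 1.02, 0.59 and 0.90 (young), 0.86, 0.69, -0.21 and 0.40 (adult), 0.43, 0.92, 0.033 and 0.052 (adult HEP14) and -0.14, 0.16, 0.19 and 0.29 (aged HEP14). Aged libraries were below all others, and aged minus young was -2.69 (SE 0.29). Rab27b (-2.56), Rab8b (-2.2) and Rab3b (-1.71) were also called lower, the last of these not when aged library 1 or 2 was left out (-1.30 in both fits, adjusted p 0.0611 and 0.0618).

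Rab44, a long Rab with calcium-binding motifs, scored 2.67, 0.73, 1.0 and 2.57 in aged libraries. It scored -0.16, -0.48, -0.39 and -0.52 in young, -0.88, -0.40, -0.63 and -0.43 in adult, -0.48, -0.62, -0.60 and -0.54 in adult HEP14 and -0.36, -0.16, -0.31 and -0.0070 in aged HEP14 ovaries. All aged libraries were above the other 16, although libraries 1 and 4 stood far above 2 and 3, and aged minus young was 2.13 (SE 0.36). Rab13, a Rab of epithelial junctions, was called higher too, at 2.04 (SE 0.42).

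Rab27a and Rab3a, both of which are known from mouse oocytes for their part in cortical granule release, were not called between aged and young ovaries. Rab27a scored -2.27, 0.63, -0.24 and 0.14 in aged libraries, with library 1 the lowest of all 20. It scored -1.16, -0.017, -1.26 and -1.18 in young, 1.08, 1.41, 0.53 and -0.52 in adult, 0.75, -0.15, -0.27 and -0.87 in adult HEP14 and 0.63, 0.98, 0.20 and 1.59 in aged HEP14 ovaries. Groups overlapped, and aged minus young was 0.47 (SE 0.55) with an adjusted p of 0.45, but 1.08 with an adjusted p of 0.0475 without aged library 1. Aged HEP14 ovaries were called higher than aged ones by 1.28 (SE 0.55). That call was lost, with differences from 0.67 (without aged library 1) to 1.36 (without aged HEP14 library 1), when aged library 1 or 3 or aged HEP14 library 1, 2 or 4 was left out. Aged HEP14 minus young, 1.75 (SE 0.55), was called and was lost on leaving out any of young libraries 1, 3 and 4 or aged HEP14 libraries 1, 2 and 4, with values from 1.51 to 1.82.

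Rab3a scored -0.75, -0.79, -0.10 and 0.66 in aged ovaries and 1.16, 1.37, -0.51 and 1.97 in aged HEP14 ovaries. It scored -1.54, 0.00010, -1.44 and -1.21 in young, 0.98, 0.83, -0.53 and 0.015 in adult and 0.69, 0.17, 0.29 and -1.26 in adult HEP14 libraries, and each group spread widely. Aged HEP14 minus young was 2.04 (SE 0.54) with an adjusted p of 0.0145, the highest of the 44 in that comparison. Without young library 1 it was 1.88 (adjusted p 0.0511) and without aged HEP14 library 4 it was 1.72 (adjusted p 0.0632). Aged HEP14 minus aged was 1.24 (SE 0.54), not called, but 1.55 (adjusted p 0.0241) without aged library 4 and 1.75 (adjusted p 0.00713) without aged HEP14 library 3.

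Among the 4 other members, Rab40c (chr17:25882114-25919727), which joins a ubiquitin ligase through its SOCS box, scored 2.52, 2.09, 1.4 and 1.23 in aged libraries. It scored -0.82, -1.05, -0.78 and -0.67 in young, -0.29, -0.53, -0.42 and 0.22 in adult, -0.61, -0.37, -0.17 and -0.56 in adult HEP14 and -0.060, -0.15, -0.47 and -0.52 in aged HEP14 ovaries. Aged libraries were the highest 4, and aged minus young, 2.64 (SE 0.30), was the highest of the 44. Its paralogue Rab40b differed by 1.36 (SE 0.62), not called, but by 1.59 (adjusted p 0.0428) without young library 2 and by 1.88 (adjusted p 0.0101) without aged library 3. Rab28, a Rab of cilia, was called lower at -1.87 (SE 0.40) and, in aged HEP14 relative to aged ovaries, higher at 2.11 (SE 0.40).

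Rab23, a negative regulator of Hedgehog signalling, scored 2.21, 0.44, 1.22 and 1.26 in young libraries and -0.28, -0.92, 0.12 and -0.50 in adult ones. It scored -1.2, -0.16, -0.53 and 0.45 in adult HEP14, -0.21, -1.15, 0.40 and -1.94 in aged and -0.22, 0.49, 1.26 and -0.73 in aged HEP14 ovaries. Young libraries were all above adult and aged ones, and the ranges of adult HEP14 and aged HEP14 libraries overlapped with that of young ones. Rab23 was the 1 member called between adult and young ovaries in the fit of all 20 libraries. Its difference was -1.68 (SE 0.52) with an adjusted p of 0.044. The call was lost when young library 1, 3 or 4 or adult library 1, 2 or 4 was left out, with values from -1.71 to -1.37 and adjusted p from 0.0744 to 0.158. Aged minus young was -2.01 (SE 0.52) with an adjusted p of 0.00177, a call kept under every alternative run.

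Apart from Rab23, no member was called between adult and young ovaries in the fit of all 20 libraries. Calls took in 9.92% of all genes (2.75% upward and 7.17% downward). An unadjusted p under 0.05 was found in 12 of 44 members and in 4873 of all 17651 genes. This fit uses 1 variance per gene for all 5 groups, and the aged group spread most (median SD 0.78 over the Rab genes). Fitting only the groups compared called 7 members higher and 4 lower, beside 8.11% and 13.4% of all genes. With 1 variance per group 8 were higher and 7 lower, beside 11.4% and 17.9%. The median difference was 0.15, beside -0.0058 over all genes. HEP14 in adult ovaries gave no call among the members (limma). None of the 44 had an unadjusted p under 0.05, which was found in 345 of all 17651 genes. The differences lay between -0.76 and 0.56, and 0.00567% of all genes were called. In aged ovaries the HEP14 difference exceeded that in adult ovaries in 24 members and was below it in 9, by a test of the difference between both HEP14 effects, where the calls took in 47.3% of all genes (24.9% above and 22.4% below).

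Between aged HEP14 and young ovaries 3 of 44 members were called, Rab3a and Rab27a higher and Rab38 lower, beside calls in 15.9% of all genes (5.38% upward and 10.5% downward). The median was 0.21, and the differences ranged from -1.40 to 2.04. An unadjusted p under 0.05 was found in 15 members and in 5614 of all 17651 genes. Fitting only the groups compared called more members in both directions, beside 14.5% and 17.1% of all genes. The plot of fitted differences shows that comparison beside the others that involve these groups.

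**Figure D3:**
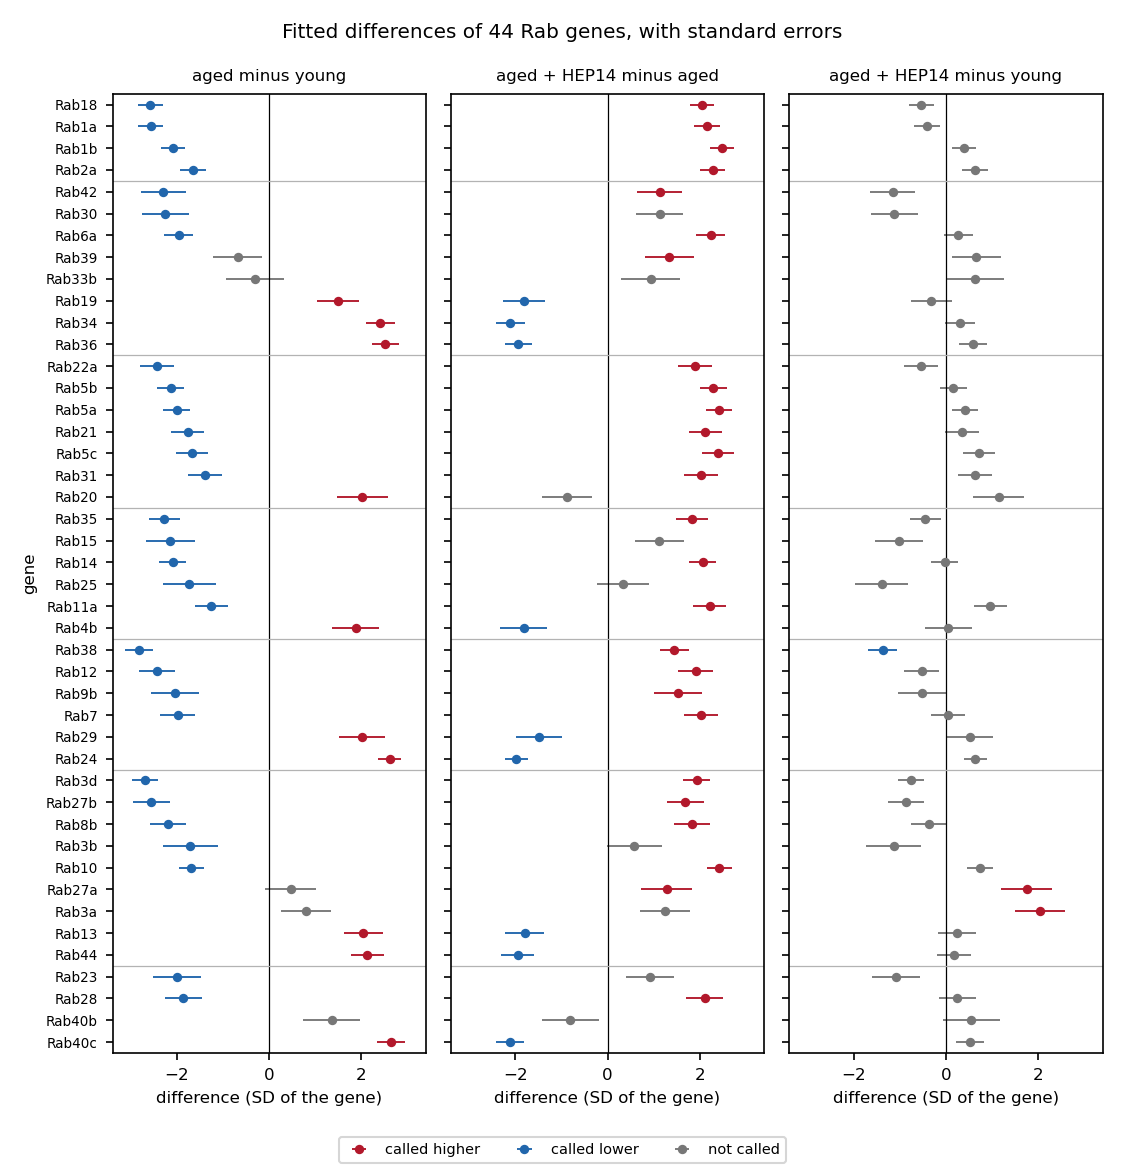
Differences of 44 Rab genes (horizontal axis, SD of the gene, with standard errors; 4 libraries per group) between aged and young, aged HEP14 and aged, and aged HEP14 and young ovaries. Red points were called higher and blue points lower; the counts are 10 and 29, 26 and 9, and 2 and 1, and the first 2 panels share the aged libraries while the outer 2 share the young ones.

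The group with the lowest mean was the aged group in 31 members, and the aged group was the highest in 11. Young ovaries had the highest mean in 14 members, adult HEP14 ovaries in 11, adult ovaries in 4 and aged HEP14 ovaries in 4 (Rab1b, Rab5c, Rab3a and Rab27a). Over the 16 libraries outside the aged group the median of 946 pairwise correlations was 0.047. Of these pairs 14.9% had a correlation above 0.5 and 13.3% one below -0.5, as a description over libraries of 4 groups that share their scaling.

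No pair of paralogues with the same number was called in opposite directions in any comparison. The coding sequences of such pairs were 69.4% (Rab27a and Rab27b) to 77.8% (Rab3b and Rab3d) identical over the aligned bases, and 77.6% for Rab1a and Rab1b. How reads that match more than 1 gene were counted is not given in the sources used here. Exons of 15 members overlapped another annotated gene, on the opposite strand in 11. Among these, Rab24 overlapped Prelid1, Rab6a Mrpl48, Rab3a Mpv17l2, Rab5a Pp2d1 and Rab10 its antisense transcript Rab10os, and the strand setting of the counting is not given. Reads of such pairs may have been shared.

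Members called higher in aged than in young ovaries had short, GC-rich transcripts relative to those called lower. The median transcript length was 1483.5 nt in the 10 higher members and 3158 nt in the 29 lower ones, and the median GC content was 56.5% against 46.6%. Among all protein-coding genes of the table, the 4434 called higher had a median length of 2666.5 nt and GC content of 53.4%, and the 6212 called lower had 3192.5 nt and 48.8%. Across the 44 members, Spearman's rho with the aged-minus-young difference was 0.45 for GC content and -0.40 for transcript length, as a description across genes that are not independent. Over 13720 protein-coding genes the values were 0.23 and -0.13. For aged HEP14 minus aged, rho with GC content was -0.53 in the members and -0.26 over all protein-coding genes. Among the members outside that order, the short, GC-rich Rab42, Rab1b and Rab25 (1081 nt and 55.7% GC in Rab25) were called lower in aged ovaries. Rab36 (3291 nt) and Rab44 (3730 nt) were called higher although longer than the median of the lower members. The part of these features in the results was not tested.

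**Figure D4:**
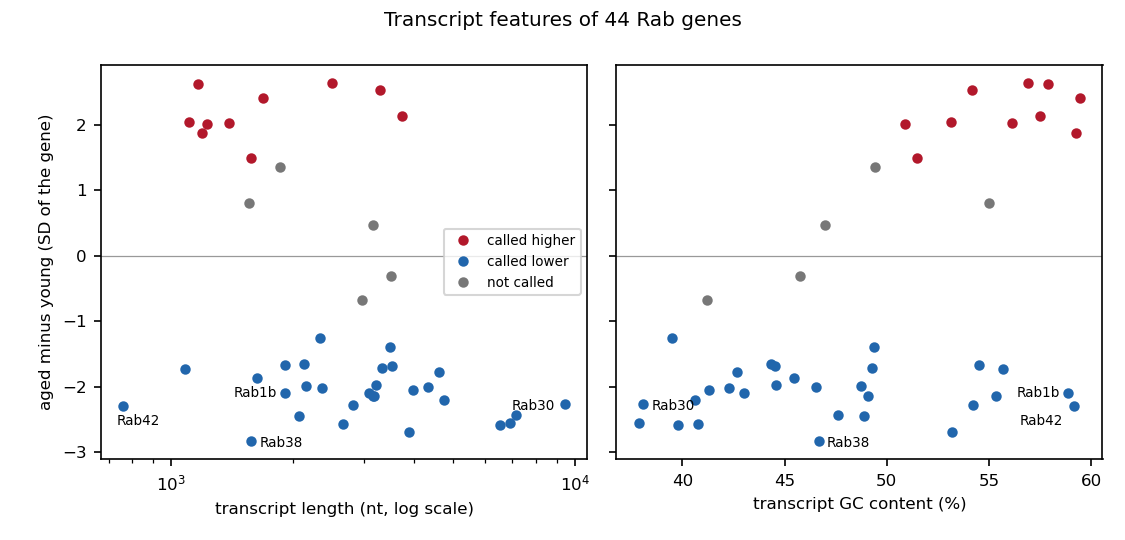
Aged minus young (vertical axis, SD of the gene) of 44 Rab genes against transcript length (left, log scale) and transcript GC content (right); points are genes, coloured by call. The 10 genes called higher lie at GC contents from 50.9 to 59.5%, while those called lower span 37.9 to 59.1%.

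The counts of genes that load, deliver and retrieve Rab proteins are to be read against 33.0% higher and 41.3% lower over all genes for aged minus young, and 33.2% and 29.3% for aged HEP14 minus aged. Of 8 prenylation and recycling factors, 2 were called higher and 4 lower in aged than in young ovaries (median -0.65), and with HEP14 in aged ovaries 5 were called higher and 2 lower. The 2 higher ones were Rabggta (2.61, SE 0.26) and Rabggtb (2.24, SE 0.46), the subunits of the transferase that prenylates Rab proteins. Chml, an escort protein that presents Rab proteins to that enzyme, differed by -2.21 (SE 0.39) and Gdi2, which extracts inactive Rab proteins from membranes, by -2.14 (SE 0.27). For aged HEP14 minus aged the values were -2.07 for Rabggta, -1.77 for Rabggtb, 2.04 for Gdi2 and 2.35 for Rabif, which binds nucleotide-free Rab proteins.

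Among 30 exchange factors in the table, of 39 listed, 16 were called higher and 8 lower in aged than in young ovaries (median 1.5), against the same shares of all genes. Dennd1a, an exchange factor for Rab35, differed by 2.81 (SE 0.27), and Als2cl by 2.58 (SE 0.25). Rin2, which acts on Rab5, differed by -2.58 (SE 0.39) and Trappc9, a subunit of a TRAPP complex, by -2.35 (SE 0.30). With HEP14 in aged ovaries 6 were called higher and 13 lower, the latter with Sbf1 (-2.5) and the Rab21 exchange factor Ankrd27 (-2.36), and Trappc9 differed by 2.35 and Dennd6a by 2.08.

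Of 29 GTPase-activating proteins in the table, out of 37 listed, 8 were called higher and 15 lower in aged than in young ovaries (median -1.32). Tbc1d10c (2.63, SE 0.29) and Tbc1d19 (2.32, SE 0.27) were among the higher, and Tbc1d16 (-2.77, SE 0.33) and Tbc1d5 (-2.34, SE 0.30), the latter a regulator of Rab7, among the lower. With HEP14 in aged ovaries 12 were called higher, including Tbc1d20 at 2.31 and Tbc1d5 at 2.04, and 8 lower, including Tbc1d19 at -2.21 and Tbc1d10c at -2.0. Of 46 effectors, out of 54 listed, 18 were called higher and 22 lower in aged than in young ovaries (median -0.68), beside 33.0% and 41.3% of all genes. With HEP14 in aged ovaries 18 effectors were called higher and 17 lower, beside 33.2% and 29.3%. Ocrl, a lipid phosphatase (2.79, SE 0.25), and Plekhm2, which links lysosomes to kinesin (2.77, SE 0.28), were higher. The Rab5 effector Rbsn (-2.71, SE 0.28) and the Rab3 effector Rph3a (-2.88, SE 0.31) were lower. With HEP14 in aged ovaries Rbsn differed by 1.85, Vps35 by 1.97, Ocrl by -2.06 and Plekhm2 by -2.04.

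Markers of ovarian and other cells also differed between groups. In aged relative to young ovaries 16 of 16 oocyte markers and 6 of 11 granulosa markers in the table were called lower, and 11 of 12 markers of T and NK cells and 7 of 10 of B and plasma cells were called higher. The mean oocyte marker score per library was -1.73 to -0.62 in aged, 0.81 to 1.51 in young, -0.28 to 0.63 in adult, 0.11 to 0.33 in adult HEP14 and -0.72 to 0.40 in aged HEP14 ovaries. For T and NK cell markers it was 0.34 to 2.71 in aged, -0.97 to -0.74 in young, -0.64 to 0.073 in adult, -0.42 to 0.31 in adult HEP14 and -0.11 to 0.044 in aged HEP14 ovaries. The mean granulosa marker score was -2.40 to 0.063 in aged, 0.11 to 0.84 in young and -0.16 to 0.39 in adult ovaries. It was -0.32 to 0.55 in adult HEP14 and 0.28 to 0.75 in aged HEP14 ovaries. In aged HEP14 relative to aged ovaries 9 of 16 oocyte and 8 of 11 granulosa markers were called higher and 9 of 12 T and NK markers lower. Of B and plasma cell markers 2 were higher and 5 lower, of endothelium 4 and 1, and of epithelium 2 and 2. Theca and luteal cells had 3 and 0, and mast cells and blood 2 and 0 each. Macrophages and smooth muscle had 1 and 0 each, and oviduct and fat 0 and 1 each. Over all genes 33.2% were higher and 29.3% lower, and for aged minus young 33.0% and 41.3%. In aged relative to young ovaries, markers of theca and luteal cells were called higher in 8 of 10 cases and lower in none. They were higher in 8 of 10 cases for adult minus young too, and for aged minus adult 0 were higher and 3 lower. Fat markers were lower in 8 of 8 cases for adult minus young, and for aged minus adult 1 was higher and 0 lower. Of 11 macrophage markers 1 was higher and 1 lower for aged minus adult. Calls went both ways for B and plasma cells (2 lower), macrophages (4 higher and 2 lower of 11), epithelium (3 and 4 of 9), oviduct (1 and 3 of 8) and endothelium (1 and 3 of 8). The calls were lower alone for smooth muscle (6 of 8), fat (7 of 8), blood (2 of 4) and mast cells (1 of 5). The part of these cell types in the Rab results was not tested.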

How the data were processed

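RNA of whole mouse ovaries was measured in 20 libraries, 4 per group. The deposited values were gene-wise standard scores, made by the authors, with a mean of 0 and an SD of 1 per gene over the 20 libraries. The labels' protocols name TRIzol extraction of total RNA and the Illumina NovaSeq as the sequencer. The submitters' processing notes name DESeq2 1.20.0, HISAT2 2.0.5 and featureCounts 1.5.0-p3. What each tool did, which build and annotation were used and how strand was set are not given in the sources used. Depth is unknown, so no counting intervals were computed.

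For the tests, limma 3.58.1 (R 4.3.3) was fitted to the scores of every gene, with 1 coefficient per group over 20 libraries, no trend, two-sided, and Benjamini-Hochberg adjustment over 17651 genes. The code of the fit was run on simulated data, with independent normal genes and known shifts. Tied lowest values and shifts of whole libraries were not simulated, so that run says nothing of false calls under them. Of the gene IDs, 17630 matched GENCODE M21 (GRCm38), and 21 did not. Transcript features came from that annotation and promoters from RefSeq (GRCm38.p6), without a genome sequence.

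Members, lists and promoter letters were chosen with earlier results of these data known. Values in every library are given for 22 members: 6 of the fixed list Rab7, Rab5a, Rab1a, Rab11a, Rab27a, Rab32, Rab38 and Rab9 that were in the table, and, per comparison, up to 4 called members with the largest difference in each direction. Paralogues called in opposite directions would have been added. From each list of regulators, the 2 genes with the smallest p in each direction are named in 2 comparisons. Alternatives were library medians set equal, only the groups compared, 1 variance per group, robust moderation, genes without tied lowest values, the replicate number as a block, and each library left out in turn.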

Additional observations from a re-analysis of the deposited data

Results flagged for a closer look

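The effect of HEP14 differed between aged and adult ovaries, by a limma test of the difference between both effects, in 24 of 44 Rab genes in the higher and 9 in the lower direction, and 47.3% of all genes passed the same test. Among the genes described library by library, the HEP14 effect in aged exceeded that in adult ovaries by 2.57 SD of the gene in Rab10, 2.56 in Rab1b, 2.5 in Rab5a, 2.33 in Rab6a, 2.27 in Rab5c, 2.21 in Rab2a, 2.17 in Rab14, 2.06 in Rab11a, 2.06 in Rab1a, 2.05 in Rab27a, 2.01 in Rab3d, 1.92 in Rab18, 1.80 in Rab7 and 1.58 in Rab38. The adjusted p of Rab27a was 0.036, and those of the others were lower. The Rab27a call was lost in 12 of the other fits, with values from 1.44 to 2.05 and adjusted p from 0.0524 to 0.0842, among them those with library medians set equal and without aged library 1. Of the members not named here, the call was lost for Rab4b in 16 fits, for Rab29 in 14 and for Rab9b in 10. Without aged libraries 1 and 2 together the values were -0.85 for Rab4b and -0.65 for Rab29. In the opposite direction the difference was -2.37 in Rab34, -2.15 in Rab19, -2.04 in Rab24, -1.99 in Rab36, -1.98 in Rab44 and -1.94 in Rab40c. All of these comparisons contain the 4 aged libraries.

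Single libraries stood far from the other 3 of their group in 4 of 110 groups of 4 libraries, over 22 genes, and chance alone gives about 1 in 20 groups. In Rab18, aged library 1 was the highest of its group at -1.26. In Rab27a, young library 2 was the highest of its group at -0.017. In Rab3d, aged library 1 was the lowest of its group at -2.02. In Rab6a, aged HEP14 library 4 was the highest of its group at 0.61.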

How the results depend on the processing

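The counts of Rab genes called in the comparisons that involve the aged group, and in the test between both HEP14 effects, stayed within 1.5 times the reported counts under every alternative run. None of the 145 called values changed sign when 1 library was left out. Leaving out 1 library at a time gave 10 to 11 higher and 28 to 29 lower for aged minus young, 9 to 10 and 23 to 26 for aged minus adult, 23 to 28 and 8 to 10 for aged HEP14 minus aged, and 22 to 25 and 7 to 9 for the difference of HEP14 effects. It gave 0 to 1 higher and 0 to 2 lower for adult minus young, 0 to 3 and 1 to 2 for aged HEP14 minus young, and 0 and 0 for HEP14 in adult ovaries. The small counts depended on the fit. For adult minus young, fitting only the groups compared gave 7 higher and 4 lower (8.11% and 13.4% of all genes), 1 variance per group gave 8 and 7 (11.4% and 17.9%), and no lower call was left (0) with library medians set equal or among the 38 members without tied values. For aged HEP14 minus young, only the groups compared gave 8 higher and 6 lower (2555 and 3021 of all 17651 genes), 1 variance per group gave 9 and 7 (2741 and 3713), and among members without tied values the lower count was 0, since Rab38 has tied values. The cause was not tested for the other changes. Without aged libraries 1 and 2 together, a choice made after seeing the data, aged minus young had 7 higher and 28 lower, and without libraries 3 and 4 together 11 and 30. The calls of Rab27a, Rab39 and Rab42 in aged HEP14 minus aged, and of Rab30 and Rab9b in aged minus adult, were lost in several fits that left out 1 library.

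Same-numbered libraries showed no consistent shared deviation. Over 40 pairs the correlation of their deviations was -0.42 to 0.16 with a median of 0.021, and 5 exceeded 0.1. A small shared effect might not show in such values, so pairing was not excluded. With the replicate number as a block, the counts were 10 higher and 29 lower for aged minus young, 10 and 23 for aged minus adult, and 26 and 9 for aged HEP14 minus aged. Depth is unknown, and levels cannot be compared between genes.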
